A study of Mus musculus with 10 samples.

Results

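Untreated bone marrow derived macrophages labelled Tlr4 -/- (KO) were compared with untreated macrophages labelled wild type (WT), 2 libraries of each, chosen by their sample titles from the 10 libraries of the series. Bone marrow derived macrophages (BMDM) are primary macrophages grown from marrow cells in culture. All libraries came from cells of C57BL/6 mice. The other groups hold KO and WT cells kept for 6 h in medium that contained 5% FBS and 2% BSA (serum and albumin), called control medium here, and KO cells given Poly(I:C), which mimics viral double-stranded RNA. The control-medium groups, 2 libraries each, serve below as a second look at the genes that differed in untreated cells. They share the fit with the untreated libraries, and the labels do not say whether they came from the same mice. The Poly(I:C) group entered the fit for its spread alone. The labels name neither the Tlr4 allele nor the age or sex of the mice, and no culture medium or time is labelled for untreated cells. Whether replicates were separate mice or cultures is not stated either, so the p-values rest on the spread of these libraries, and that spread may be technical.

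TLR4 is the cell surface receptor for bacterial lipopolysaccharide. With its co-receptor MD-2 (Ly96) and CD14 it signals through MyD88 to NF-kB and inflammatory cytokines, and through TRIF (Ticam1) to IRF3 and interferon beta. Interferon beta binds the IFNAR receptor, whose kinases JAK1 and TYK2 activate STAT factors; these join IRF9 and induce interferon-stimulated genes (ISGs). Unstimulated macrophages are known to keep a low, tonic interferon signal, which holds ISGs above their floor.

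The deposited totals were 25.2 and 26.0 M in KO untreated cells and 26.0 and 25.5 M in WT untreated cells. Behind them lay an estimated 34.7 and 22.1 M reads in the KO libraries and 22.1 and 37.1 M reads in the WT libraries. Levels are given as CPM (counts per M, here of the deposited units), scaled by TMM, and differences as KO minus WT on the log2(CPM + 0.1) scale, with their standard errors (SE). This scale understates the change of low genes. Replicates correlated at 0.9933 in KO and 0.9918 in WT across genes, which are not independent replicates. The cells had macrophage RNA: all 22 listed macrophage markers were tested, among them Lyz2 (lysozyme), at 18110 and 19155 CPM in KO cells and 17176 and 15697 CPM in WT cells, and Adgre1 (F4/80), at 3038 and 3399 CPM in KO cells and 2894 and 2902 CPM in WT cells.

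Tlr4 RNA was present under both labels. Tlr4 (chr4:66827584-66930284, plus strand, GRCm38) was measured at 44.4 and 44.9 CPM in KO cells and at 60.1 and 69.1 CPM in WT cells. The KO libraries lay below the WT libraries without overlap, at 0.694 of the WT level. The log2 difference of -0.53 (SE 0.14) did not pass the test over all genes (limma, adjusted p = 0.346). After control medium the levels were 30.8 and 34.6 CPM in KO cells and 32.3 and 39.0 CPM in WT cells, which overlap. The values count reads over the whole gene and cannot show whether an exon is missing, so they do not check the genotype labels; KO and WT below mean cells so labelled.

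Few genes differed between the genotypes at baseline. Of 13171 genes tested, 22 passed at an adjusted p under 0.05 (limma with Benjamini-Hochberg adjustment), or 0.167%, with 11 higher and 11 lower in KO, 0.0835% each way. At an unadjusted p under 0.05 there were 611 genes higher, or 4.64%, and 535 lower, or 4.06%. With 4 of the pseudogenes sharing identical values, the 22 hold 19 distinct sets of values. These are not 19 separate measurements, since another called pseudogene, Gm10243, has the same sequence as those 4, as described below. The count rests on single libraries: it was 14 without KO replicate 2, 12 without WT replicate 1 and 69 without WT replicate 2. A group of 8 genes passed in the main fit and under all 15 other settings tried, namely Gm16867, Gm27177, Mid1-ps1, Lrmda, Ptprd, Akap2, Acad10 and Wdfy1.

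**Figure D1:**
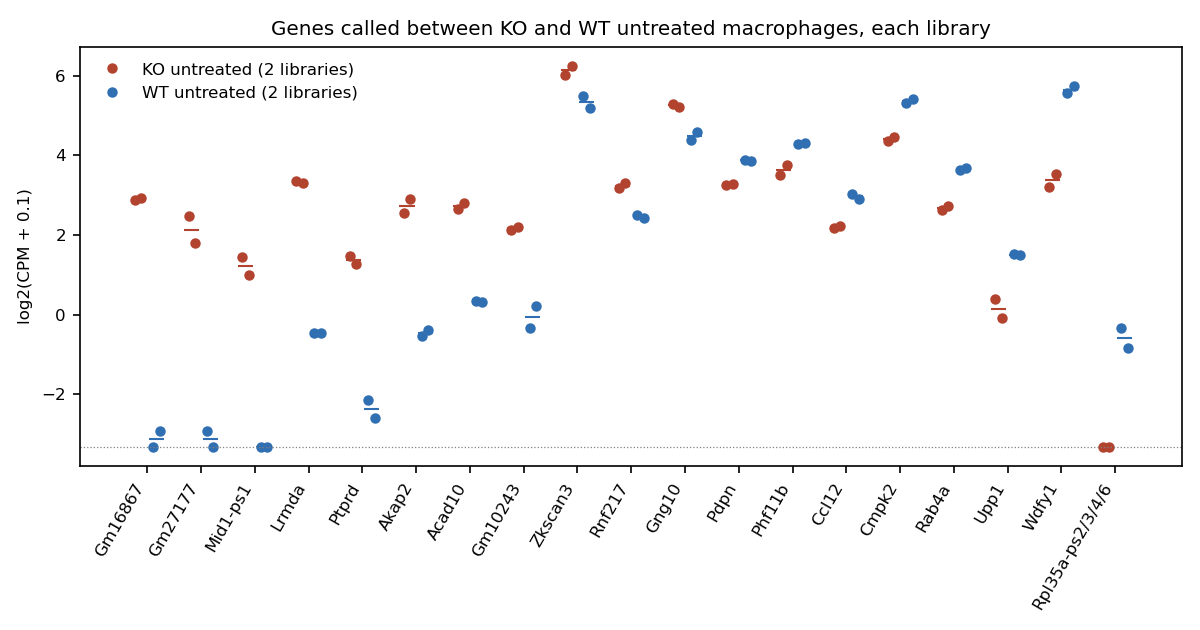
Level of each called gene in each untreated library, as log2(CPM + 0.1) on the vertical axis, KO in red and WT in blue, with a bar at the mean of the 2 libraries. The dotted line marks a value of 0, where both WT libraries lie for Mid1-ps1 and both KO libraries for the 4 Rpl35a pseudogenes. No called gene has overlapping groups.

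The genes with the largest gain in KO were all but off in WT. Gm16867 (chr14:69363504-69503362, minus strand) stood at 7.30 and 7.52 CPM in KO cells and at 0 and 0.0331 CPM in WT cells. Gm27177 (chr14:69582164-69683286, minus strand) stood at 5.46 and 3.37 CPM in KO cells and at 0.0313 and 0 CPM in WT cells. Their log2 differences were 6.02 (SE 0.32) and 5.26 (SE 0.30), with limma adjusted p of 2.42e-05 and 2.86e-05. Both genes are transcribed opposite to another gene: Gm16867 lies across Entpd4, at 24.4 and 25.5 CPM in KO cells and 19.9 and 18.3 CPM in WT cells, and Gm27177 lies across Entpd4b, at 15.2 and 13.3 CPM in KO cells and 9.74 and 11.1 CPM in WT cells. The library kit keeps the strand, but no source used here says whether the authors' counting used it, so the share of reads from each partner is uncertain.

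Mid1-ps1, an unprocessed pseudogene of Mid1 placed on chromosome Y (90753057 to 90763485), had 2.62 and 1.88 CPM in KO cells and was listed at 0 in both WT libraries, so no fold is given (limma, adjusted p = 2.86e-05). It was again at 2.87 and 1.78 CPM in KO cells and at 0 in both WT libraries after control medium. As a copy of Mid1 it may share reads with that gene, and its level is uncertain. Lrmda (chr14:22019712-23056085), a leucine-rich repeat gene named for melanocyte differentiation, had 10.1 and 9.86 CPM in KO cells against 0.626 and 0.629 CPM in WT cells. That difference of 3.79 (SE 0.14) had the smallest p of all genes (limma, adjusted p = 1.75e-06). Acad10 (chr5:121621026-121660514), of the acyl-CoA dehydrogenase family, had 6.25 and 6.84 CPM in KO cells against 1.16 CPM in each WT library, a difference of 2.40 (SE 0.18; limma, adjusted p = 0.000236).

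The other protein-coding genes off chromosome 4 that were higher in KO changed by less. Zkscan3, a zinc finger protein known to repress autophagy, had 65.0 and 75.7 CPM in KO cells against 44.9 and 36.3 CPM in WT cells (difference 0.79, SE 0.11; limma, adjusted p = 0.0225). Rnf217, a RING-type ubiquitin ligase, had 8.93 and 9.76 CPM in KO cells against 5.58 and 5.33 CPM in WT cells (difference 0.77, SE 0.12; limma, adjusted p = 0.0409). Rnf217 was called under 4 of the 15 other settings and Zkscan3 under 11.

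A set of 5 calls in opposite directions came from one pseudogene sequence. Gm10243 (chromosome 6) had 4.29 and 4.54 CPM in KO cells and 0.689 and 1.06 CPM in WT cells, a difference of 2.24 (SE 0.26; limma, adjusted p = 0.00774). Rpl35a-ps2, Rpl35a-ps3, Rpl35a-ps4 and Rpl35a-ps6, on chromosomes 1, 17, 2 and 5, were listed at 0 in both KO libraries and each at 0.689 and 0.463 CPM in WT cells (limma, adjusted p = 0.0041). The 5 processed pseudogenes of the ribosomal protein gene Rpl35a are 333 bases long and 100% identical to each other in the GENCODE transcripts. Summed over the 5 copies the level was 4.29 and 4.54 CPM in KO cells and 3.45 and 2.91 CPM in WT cells. In WT replicate 1 and in all 4 control-medium libraries the 5 copies carried equal values. No source used here says how the authors' counting divided reads among identical copies, and all 5 calls are uncertain.

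Among the protein-coding genes that were lower in KO, Wdfy1 had the largest difference. Wdfy1 (chr1:79702262-79776143, minus strand) encodes a WD repeat and FYVE domain protein described as recruiting TRIF to TLR3 and TLR4. It had 9.16 and 11.5 CPM in KO cells against 46.9 and 53.3 CPM in WT cells, a difference of -2.27 (SE 0.11; limma, adjusted p = 1.92e-05). Mrpl44, which overlaps it on the other strand, had 20.8 and 18.5 CPM in KO cells and 20.7 and 19.7 CPM in WT cells, so the partner's groups overlapped.

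The remaining 6 genes lower in KO differed by log2 differences of -1.35 to -0.61. Upp1, uridine phosphorylase, had 1.21 and 0.843 CPM in KO cells against 2.76 and 2.71 CPM in WT cells (limma, adjusted p = 0.0397). Rab4a, a small GTPase of recycling endosomes, had 6.12 and 6.52 CPM in KO cells against 12.4 and 12.8 CPM in WT cells (limma, adjusted p = 0.0409). Gm20388 overlaps Rab4a on the same strand at 83.3 and 96.0 CPM in KO cells and 90.0 and 67.2 CPM in WT cells, so the split of reads between them is uncertain. Pdpn, the membrane glycoprotein podoplanin, had 9.39 and 9.66 CPM in KO cells against 14.8 and 14.4 CPM in WT cells (limma, adjusted p = 0.0255). No KO library reached a WT library in any of these 3 genes. The other 3, Cmpk2, Ccl12 and Phf11b, were listed here as interferon-stimulated and are described with that list. Just outside the threshold on the lower side lay Nos2, the inducible nitric oxide synthase, with 1.54 and 1.43 CPM in KO cells, 3.16 and 3.74 CPM in WT cells and an adjusted p of 0.0535 by limma.

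The control-medium libraries are separate from those that gave the 22 calls, and all groups share the estimate of spread. In control medium 30.9% of all genes were called higher and 30.2% lower in KO (limma), so a call there is common. Of the 11 genes higher in untreated KO cells, 8 were called higher there too and 1, Akap2, was called lower. Of the 11 lower genes, 6 were called lower and 1, Rab4a, was called higher. The genotype difference itself differed between the conditions for 16 of the 22 genes at an adjusted p under 0.05 (limma, interaction), as it did for 45.7% of all genes tested. Among the other 6, Gng10 differed by 0.74 after control medium (SE 0.09) and by 0.76 in untreated cells (SE 0.09), and Gm27177 by 5.36 (SE 0.30) and 5.26 (SE 0.30). Lrmda had 11.4 and 11.7 CPM in KO control cells against 0.475 and 0.448 CPM in WT control cells, a wider difference than in untreated cells (4.38, SE 0.14). Wdfy1 had 10.5 and 10.8 CPM in KO control cells against 94.1 and 100.2 CPM in WT control cells. Akap2 went against its untreated direction, with 2.21 and 2.17 CPM in KO control cells against 3.22 and 4.42 CPM in WT control cells.

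**Figure D2:**
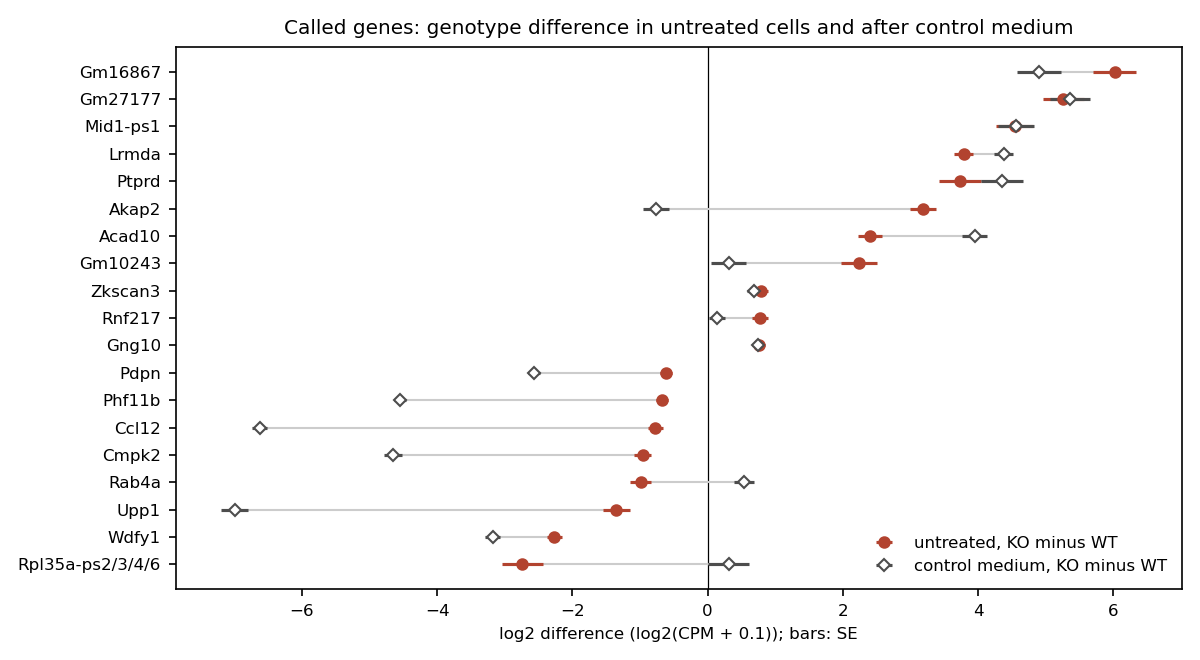
Genotype difference of each called gene (KO minus WT, log2(CPM + 0.1), horizontal axis) in untreated cells (filled red) and after control medium (open grey), with SE bars. Gm27177, Mid1-ps1, Zkscan3 and Gng10 lie close together in both conditions. Upp1, Ccl12, Cmpk2 and Phf11b lie far lower after control medium, and Akap2 and Rab4a lie on opposite sides of 0.

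On chromosome 4, where Tlr4 lies, 3 of 97 other tested genes within 20 Mb of the Tlr4 start site were called, or 3.09%, against 0.167% of all genes tested, and all 3 were higher in KO. The chromosome as a whole held 4 calls among 818 genes other than Tlr4, or 0.489%. The median log2 difference of the 97 genes was 0.0453, against -0.00735 for all genes tested. Differences of more than 1 on the log2 scale were found in 7 of the 97, or 7.22%, against 1.03% of all genes. Among these 7, Col27a1, Orm1, Ywhaq-ps3 and Gm12435 stayed under 1 CPM in every untreated library, where rounding limits the values. At an unadjusted p under 0.05 (limma) there were 17 genes higher and 4 lower in the window, where 4.64% of all genes were higher and 4.06% lower.

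The called neighbours lay on both sides of the receptor gene. Ptprd (chr4:75941238-78211961, minus strand), a receptor-type tyrosine phosphatase, starts 11.4 Mb downstream and had 2.68 and 2.30 CPM in KO cells against 0.125 and 0.0662 CPM in WT cells (difference 3.74, SE 0.31; limma, adjusted p = 0.000568). Akap2 (chr4:57717657-57896984), an anchor of protein kinase A, starts 9.11 Mb upstream and had 5.82 and 7.36 CPM in KO cells against 0.595 and 0.662 CPM in WT cells (difference 3.19, SE 0.19; limma, adjusted p = 2.86e-05). Its overlapping gene Pakap, on the same strand, was at 0 and 0.486 CPM in KO cells and 0 and 0.165 CPM in WT cells. Gng10 (chr4:59035088-59041903), a G protein gamma subunit, starts 7.79 Mb upstream and had 39.4 and 36.9 CPM in KO cells against 20.9 and 24.2 CPM in WT cells (difference 0.76, SE 0.09; limma, adjusted p = 0.0114).

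Below the threshold the window held further genes with a positive difference. Lpar1, a receptor for lysophosphatidic acid 8.27 Mb upstream, had 6.94 and 8.40 CPM in KO cells and 4.35 and 3.87 CPM in WT cells (difference 0.88; limma, adjusted p = 0.0535). Zfp618, 3.86 Mb upstream, had 4.09 and 4.15 CPM in KO cells and 1.91 and 1.19 CPM in WT cells (difference 1.39; limma, adjusted p = 0.108). These 2 genes were singled out after their values were seen. Neither group of untreated libraries overlapped the other in either gene. After control medium Lpar1 went the other way and was lower in KO (difference -2.51; limma, adjusted p = 2.14e-07). Zfp618 was again higher in KO (difference 2.25; limma, adjusted p = 3.51e-05).

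The 10 tested genes nearest to Tlr4, 5 on each side, held no call. Within 5 Mb, 0 of 29 genes were called by limma, with 3 higher and 2 lower at an unadjusted p under 0.05. Among all genes 4.64% were higher and 4.06% lower at that level. Upstream, Trim32, a ubiquitin ligase, had 15.7 and 17.1 CPM in KO cells and 14.0 and 14.7 CPM in WT cells, higher in KO without overlap, and Tnfsf15, Tnfsf8, Tnc and 8030451A03Rik each stayed under 3 CPM with overlapping groups. Downstream, 3 neighbours were lower in both KO libraries than in both WT libraries, as Tlr4 was and as 17.5% of all genes tested were. Megf9, an EGF-like domain protein, had 14.4 and 13.6 CPM in KO cells and 18.4 and 21.2 CPM in WT cells (difference -0.49; limma, adjusted p = 0.249). Tle1, a transcriptional corepressor, had 4.15 and 3.47 CPM in KO cells and 6.23 and 5.69 CPM in WT cells (difference -0.64; limma, adjusted p = 0.346). Cdk5rap2, a centrosome protein, had 25.8 and 26.6 CPM in KO cells and 37.1 and 27.8 CPM in WT cells. None of these 3 stayed lower in KO after control medium, where 30.9% of all genes were called higher. There the difference was 1.70 for Tle1 (limma, adjusted p = 1.42e-05) and 0.44 for Cdk5rap2 (limma, adjusted p = 0.0112). For Megf9 it was 0.23 (limma, adjusted p = 0.0997). The other 2 downstream genes were Kdm4c, a histone demethylase, whose groups overlapped, and the pseudogene Ywhaq-ps3, under 1 CPM throughout and higher in KO without overlap.

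**Figure D3:**
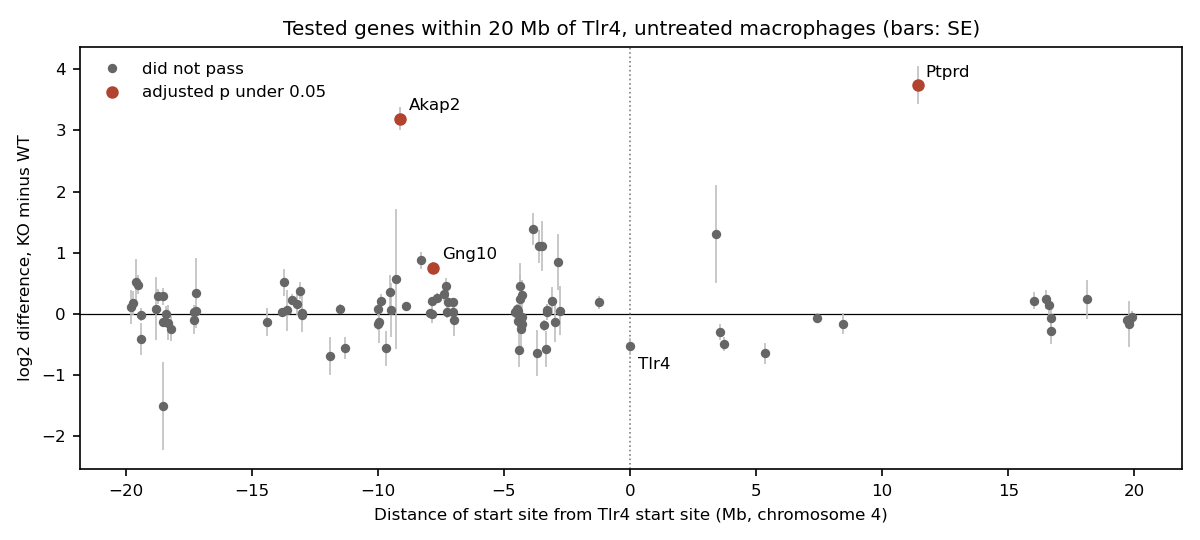
Log2 difference between KO and WT untreated cells (vertical axis, SE bars) of the tested genes within 20 Mb of Tlr4 against the distance of their start site in Mb (horizontal axis). The 3 called genes, in red, are Akap2 and Gng10 upstream and Ptprd downstream; genes within 5 Mb, Tlr4 among them, did not pass.

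Chromosome 14 held as many calls as chromosome 4, at 4 of 447 tested genes or 0.895%. These were Lrmda, Gm16867 and Gm27177, higher in KO, and Phf11b, lower in KO. Chromosome Y had 1 call among 10 tested genes, and no other chromosome held more than 2 calls.

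Interferon genes themselves were at or near 0. Of 21 listed interferon ligands 3 were tested, and in untreated cells Ifna2 and Ifna5 were at 0 in all 4 libraries. Ifnb1, interferon beta, was at 0 in both KO libraries and at 0 and 0.0993 CPM in WT cells, too low for a comparison. Of the 21 ligands, 19 were at 0 in all 4 libraries and none reached 1 CPM.

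Of the 9 receptors and kinases of the pathway, all but Ifnlr1, which stayed under 0.1 CPM, were well expressed. Limma called 0 of 9, with 1 higher and 0 lower at an unadjusted p under 0.05, where 4.64% of all genes were higher. Ifnar1 had 152 and 156 CPM in KO cells and 154 and 153 CPM in WT cells. Ifnar2 had 103 and 109 CPM in KO cells and 101 and 108 CPM in WT cells. Jak1 had 238 and 264 CPM in KO cells and 249 and 242 CPM in WT cells, and Tyk2 had 74.5 and 69.4 CPM in KO cells and 72.4 and 78.6 CPM in WT cells. The groups overlapped in all 4 of these. Ifngr1, a chain of the interferon gamma receptor, had 153 and 158 CPM in KO cells and 135 and 138 CPM in WT cells (difference 0.19, SE 0.07; limma, adjusted p = 0.49).

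Of the 10 STAT and IRF factors limma called 0, and 9 had a negative difference. At an unadjusted p under 0.05, 3 were lower, where 4.06% of all genes were. KO lay below WT without overlap in 4 of the 10, or 40%, against 17.5% of all genes. Irf7, the factor that amplifies type I interferon, had 44.2 and 55.4 CPM in KO cells and 73.3 and 113 CPM in WT cells (difference -0.88, SE 0.20; limma, adjusted p = 0.265). Stat2 had 91.3 and 118 CPM in KO cells and 138 and 162 CPM in WT cells (difference -0.53, SE 0.16; limma, adjusted p = 0.365). In these 2 genes, themselves interferon-inducible, both KO libraries lay below both WT libraries. Irf3, which acts directly below TRIF and is not known as an induced gene, had 31.9 and 24.3 CPM in KO cells and 28.4 and 29.7 CPM in WT cells, which overlap.

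Many ISGs carry in their promoter the interferon-stimulated response element, bound by complexes of STAT factors with IRF9 and by other IRFs. Its core holds the letters GAAA, 2 bases of any kind and GAAA again, and these letters were searched on both strands from 250 bases before to 50 after the start site in RefSeq promoters (GRCm38.p6). They were found in 49 of the 108 tested ISGs with a promoter in the table, or 45.4%, against 3.99% of all 27025 promoters and 3.57% of 28 inflammatory NF-kB targets. The share was 81.8% of 11 ISG GTPases and 44.8% of 58 antiviral effectors, and it was lower in MHC class I and immunoproteasome genes (33.3% of 15), the ubiquitin-like pathway (28.6% of 7) and the chemokines and cytokines (14.3% of 7). The median difference was -0.39 for the 49 ISGs with the letters and -0.30 for the 59 without. A match is a description of the letters and not a proven site. The 6 promoters shown belong to the ISGs with the largest differences among those with a match; capitals mark the matches, which read TTTC, 2 bases and TTTC where they lie on the other strand, and in Isg15 3 matches overlap.
Ifi205 (chr1:174031706-174032005, minus strand): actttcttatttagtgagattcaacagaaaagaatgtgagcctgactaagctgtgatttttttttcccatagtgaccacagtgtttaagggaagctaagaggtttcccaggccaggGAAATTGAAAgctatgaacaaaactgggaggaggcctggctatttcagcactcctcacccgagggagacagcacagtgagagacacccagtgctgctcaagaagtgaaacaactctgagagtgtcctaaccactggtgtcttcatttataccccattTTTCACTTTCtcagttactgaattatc
Tgtp2 (chr11:49064163-49064462, minus strand): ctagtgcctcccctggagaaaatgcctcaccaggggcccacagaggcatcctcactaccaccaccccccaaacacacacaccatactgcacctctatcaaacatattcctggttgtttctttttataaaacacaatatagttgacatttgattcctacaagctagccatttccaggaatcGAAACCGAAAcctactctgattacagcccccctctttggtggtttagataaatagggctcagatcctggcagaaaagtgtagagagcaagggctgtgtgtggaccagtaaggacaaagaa
Cxcl10 (chr5:92348840-92349139, minus strand): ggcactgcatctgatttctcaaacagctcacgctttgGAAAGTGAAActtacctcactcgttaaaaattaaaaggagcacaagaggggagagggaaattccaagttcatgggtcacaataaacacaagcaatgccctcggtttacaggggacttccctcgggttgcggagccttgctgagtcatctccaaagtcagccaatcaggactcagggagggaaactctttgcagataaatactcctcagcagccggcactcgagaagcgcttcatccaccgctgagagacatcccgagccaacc
Ifit3 (chr19:34583279-34583578, plus strand): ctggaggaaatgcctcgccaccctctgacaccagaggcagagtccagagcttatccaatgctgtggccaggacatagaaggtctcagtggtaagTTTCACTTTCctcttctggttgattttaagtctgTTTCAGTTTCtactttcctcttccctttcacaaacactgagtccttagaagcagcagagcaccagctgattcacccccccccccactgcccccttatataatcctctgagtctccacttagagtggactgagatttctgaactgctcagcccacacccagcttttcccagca
Isg15 (chr4:156200769-156201068, minus strand): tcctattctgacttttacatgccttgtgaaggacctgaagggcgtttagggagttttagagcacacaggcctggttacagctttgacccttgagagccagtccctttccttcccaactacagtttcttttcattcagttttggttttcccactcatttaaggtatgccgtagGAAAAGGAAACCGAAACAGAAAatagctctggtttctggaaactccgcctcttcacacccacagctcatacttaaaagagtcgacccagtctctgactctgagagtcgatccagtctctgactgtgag
Rsad2 (chr12:26456403-26456702, minus strand): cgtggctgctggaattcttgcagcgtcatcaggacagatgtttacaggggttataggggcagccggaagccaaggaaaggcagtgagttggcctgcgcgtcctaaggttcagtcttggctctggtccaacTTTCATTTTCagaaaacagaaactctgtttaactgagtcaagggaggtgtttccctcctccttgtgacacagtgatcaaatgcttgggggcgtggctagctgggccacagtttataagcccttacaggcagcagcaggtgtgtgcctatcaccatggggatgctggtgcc

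Most ISGs had a small negative difference in untreated KO cells, and few of them passed singly. Of 142 tested, of 143 listed, limma called 3 lower and 0 higher, or 3 beside the 0.0835% of all genes called lower. The median difference was -0.36, against -0.00735 for all genes tested. A negative difference was found in 133 ISGs and a positive one in 8, where 6844 of all 13171 genes were negative and 6288 positive. Groups did not overlap with KO lower in 102 of the 142, or 71.8%, against 17.5% of all genes. At an unadjusted p under 0.05, 76 were lower and 0 higher, where 4.06% of all genes were lower. The number called was 0 without KO replicate 1, 1 without WT replicate 1, and 9 when scaled by library totals alone.

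The 2 libraries of a genotype lay farther apart than the nearest libraries of the 2 genotypes. The median ISG deviation from the mean of the 4 libraries was -0.269 and -0.0625 in the KO libraries and 0.0866 and 0.278 in the WT libraries, while the median of all genes lay between 0.00266 and 0.00559 in each. KO replicate 1 was the lowest and WT replicate 2 the highest. Some other lists set single libraries apart: the immediate early genes had medians of -0.0345 and -0.153 in KO cells and -0.0603 and 0.334 in WT cells, and the cell cycle list 0.0292 and -0.193 in KO cells and 0.403 and -0.216 in WT cells. With only WT replicate 1 high, 34 of 35 cell cycle genes still had a negative difference, while KO lay lower without overlap in 8.57% of them. Further lists split by genotype as the ISGs did, with smaller medians. Glycolysis and hypoxia genes had -0.0472 and -0.0424 in KO cells and 0.0636 and 0.0564 in WT cells, with 23 of 26 differences negative and KO lower without overlap in 57.7%. The ER and integrated stress list had -0.0542 and -0.0944 in KO cells and 0.0461 and 0.0685 in WT cells, with 21 of 28 negative and 50% without overlap. Of all genes tested, 17.5% were lower in KO without overlap. In both lists limma called 0, with 4 lower and 0 higher at an unadjusted p under 0.05, where 4.06% of all genes were lower. The part of these lists in the ISG values was not tested.

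**Figure D4:**
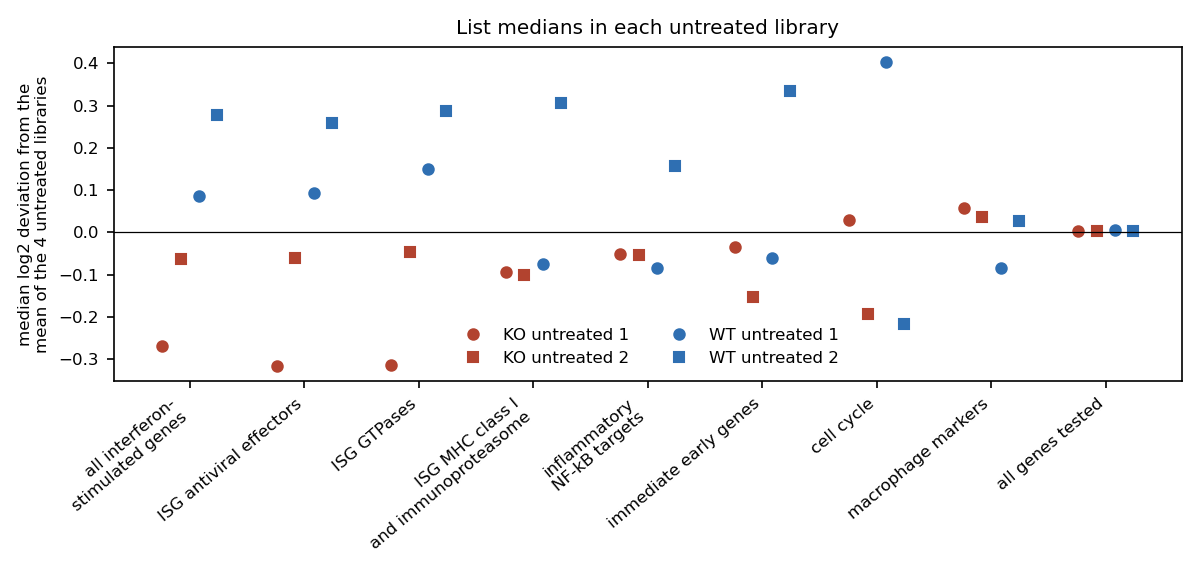
Median log2 deviation of each gene list from the mean of the 4 untreated libraries (vertical axis), with KO libraries in red and WT libraries in blue and replicates by symbol. Both KO libraries lie below both WT libraries for the ISGs, their antiviral effectors and GTPases, at -0.269 and -0.0625 in KO against 0.0866 and 0.278 in WT for all ISGs. For MHC class I, inflammatory and immediate early genes WT replicate 2 alone is high, and for the cell cycle WT replicate 1 alone.

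Of the antiviral effectors, all 71 tested had a negative difference, 42 at an unadjusted p under 0.05, and 2 were called. Among all genes 4.06% were lower at that level and 0.0835% were called lower. Cmpk2, a mitochondrial nucleotide kinase, had 20.3 and 21.9 CPM in KO cells against 39.7 and 42.7 CPM in WT cells (difference -0.96, SE 0.13; limma, adjusted p = 0.0225). Phf11b, a PHD finger protein, had 11.3 and 13.5 CPM in KO cells against 19.5 and 19.7 CPM in WT cells (difference -0.67, SE 0.09; limma, adjusted p = 0.0255). Rsad2 (viperin), next to Cmpk2 on chromosome 12 and shown above with its promoter, had 82.9 and 109 CPM in KO cells and 133 and 189 CPM in WT cells (difference -0.74, SE 0.21; limma, adjusted p = 0.357). Its groups did not overlap, and its WT libraries differed more from each other than those of Cmpk2.

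The IFIT family, which binds foreign RNA, was lower in each KO library than in each WT library for the members named here, none of which passed. Ifit2 had 78.5 and 113 CPM in KO cells and 143 and 211 CPM in WT cells, and Ifit3 had 49.4 and 70.8 CPM in KO cells and 92.1 and 116 CPM in WT cells. Outside that family, Oasl1, a negative regulator of Irf7 translation, had 7.36 and 10.8 CPM in KO cells and 13.6 and 20.98 CPM in WT cells (difference -0.91; limma, adjusted p = 0.314). Slfn1, a growth regulator of the Schlafen family, had the largest difference of the list, at 1.60 and 2.01 CPM in KO cells and 2.85 and 6.82 CPM in WT cells (difference -1.25, SE 0.34; limma, adjusted p = 0.346). In each of these 4 genes, picked for large differences, all KO values lay below all WT values. Over the effector list that held for 56 of 71, or 78.9%, against 17.5% of all genes. Of the 4 most abundant effectors none passed. Ifitm3, a block to virus entry, had 326 and 394 CPM in KO cells and 378 and 475 CPM in WT cells, and Ifitm2 had 368 and 375 CPM in KO cells and 350 and 415 CPM in WT cells, both with overlap. Samhd1, which breaks down nucleotides, had 348 and 397 CPM in KO cells and 405 and 399 CPM in WT cells, and Lgals3bp had 303 and 353 CPM in KO cells and 365 and 470 CPM in WT cells (difference -0.34; limma, adjusted p = 0.538), both without overlap.

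Of the 13 nucleic acid sensors, 11 had a negative difference, 8 of them at an unadjusted p under 0.05, where 4.06% of all genes were lower. Limma called 0 of the 13. Ifi205, a DNA-binding PYHIN protein, had 0.916 and 1.95 CPM in KO cells and 2.72 and 3.34 CPM in WT cells (difference -1.11; limma, adjusted p = 0.286). Zbp1, a sensor of Z-form nucleic acid, had 18.6 and 27.7 CPM in KO cells and 32.6 and 44.5 CPM in WT cells (difference -0.75; limma, adjusted p = 0.343). Ddx58 (RIG-I), a sensor of viral RNA, had 70.0 and 86.1 CPM in KO cells and 101 and 111 CPM in WT cells (difference -0.45; limma, adjusted p = 0.347). Of the 8 genes of the ubiquitin-like pathway and its brakes, 7 were negative. Isg15, the ubiquitin-like modifier, had 25.4 and 31.9 CPM in KO cells and 39.5 and 59.8 CPM in WT cells (difference -0.77; limma, adjusted p = 0.286). Usp18, which removes ISG15 and restrains IFNAR signalling, had 11.7 and 15.2 CPM in KO cells and 21.8 and 28.8 CPM in WT cells (difference -0.90, SE 0.17; limma, adjusted p = 0.115). In all 5 of these genes, picked for large differences in their lists, both KO libraries lay below both WT libraries. That held for 11 of 13 sensors (84.6%) and 7 of the 8 ubiquitin-like pathway genes (87.5%), against 17.5% of all genes. Limma called 0 of the 8, with 5 lower and 0 higher at an unadjusted p under 0.05, where 4.06% of all genes were lower.

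The interferon-inducible GTPases, which act on pathogen vacuoles, had a median of -0.413 over 20 genes, 19 of them negative. At an unadjusted p under 0.05, 11 were lower, where 4.06% of all genes were. Limma called 0. Gbp4 had 0.720 and 0.649 CPM in KO cells and 1.50 and 1.62 CPM in WT cells (difference -1.08, SE 0.18; limma, adjusted p = 0.0687). Tgtp2 had 5.82 and 7.72 CPM in KO cells and 12.1 and 13.1 CPM in WT cells (difference -0.90, SE 0.17; limma, adjusted p = 0.112). Irgm1 had 48.6 and 63.8 CPM in KO cells and 72.4 and 76.0 CPM in WT cells. The groups did not overlap in any of the 3, of which Gbp4 and Tgtp2 were picked for large differences. KO lay below WT without overlap in 16 of the 20 GTPases, or 80%, against 17.5% of all genes. Many genes of this family are close copies of each other, and reads may be shared among them.

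The MHC class I and immunoproteasome genes had a median of -0.238. KO lay below WT without overlap in 6 of 18, or 33.3%, against 17.5% of all genes. B2m, the MHC class I light chain, had 1657 and 1920 CPM in KO cells and 1575 and 2081 CPM in WT cells. H2-K1, a classical heavy chain, had 790 and 765 CPM in KO cells and 701 and 1038 CPM in WT cells. In both genes WT replicate 1 was the lowest library and WT replicate 2 the highest. No gene of the group was called by limma, and 5 were lower and 0 higher at an unadjusted p under 0.05, where 4.06% of all genes were lower.

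Of the 12 ISG chemokines and cytokines, 9 were negative and 2 positive, and Cxcl11 was at 0 in all 4 libraries. Ccl12, a monocyte attractant, had 4.38 and 4.60 CPM in KO cells against 8.14 and 7.38 CPM in WT cells and was called (difference -0.77, SE 0.11; limma, adjusted p = 0.0233). Its neighbours in the same chemokine cluster, Ccl2 and Ccl7, did not pass. Ccl2 had 51.5 and 41.9 CPM in KO cells and 94.8 and 68.9 CPM in WT cells (difference -0.80, SE 0.14; limma, adjusted p = 0.0919). Ccl7 had 19.7 and 17.2 CPM in KO cells and 40.1 and 29.0 CPM in WT cells (difference -0.89, SE 0.15; limma, adjusted p = 0.0687). Cxcl10, an attractant of T cells, had 5.56 and 3.89 CPM in KO cells and 8.77 and 7.78 CPM in WT cells (difference -0.81; limma, adjusted p = 0.204). In these 4 genes, which had the largest differences of the list, both KO libraries lay below both WT libraries. Over the list that held for 6 of 12, or 50%, against 17.5% of all genes.

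**Figure D5:**
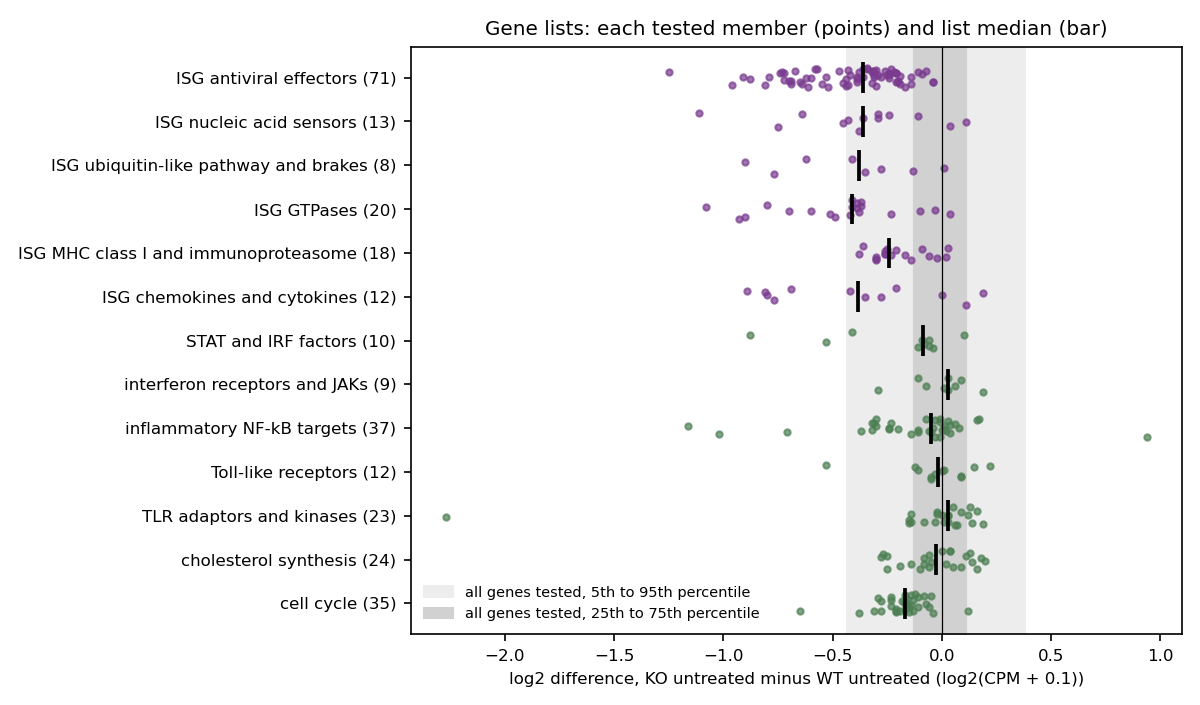
Log2 difference between KO and WT untreated cells (horizontal axis) of every tested member of each list (points, with the number tested in parentheses) and the list median (black bar). Grey bands span the 5th to 95th and the 25th to 75th percentiles of all genes tested. The ISG lists, in purple, have medians from -0.413 to -0.238; the lone point far to the left among TLR adaptors is Wdfy1.

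Inflammatory NF-kB targets, the other arm of TLR4 signalling, showed a median of -0.0468 over 37 genes. The chemokines Ccl2, Ccl7 and Ccl12 were counted with the ISGs and not in this list, so both results depend on that choice. Limma called 0, with 8 lower and 1 higher at an unadjusted p under 0.05. Of all genes, 4.06% were lower and 4.64% higher at that level. Differences were negative in 26 of the 37 and positive in 11. KO lay below WT without overlap in 27%, against 17.5% of all genes, and above it in 5.41%, against 18.4%. The largest difference was that of Nos2, described above, at -1.16. The most abundant, the scavenger receptor Marco, had 4424 and 3975 CPM in KO cells and 4547 and 4678 CPM in WT cells. Sod2, mitochondrial superoxide dismutase, had 184 and 191 CPM in KO cells and 174 and 211 CPM in WT cells, which overlap. The cytokine Il6 had 0.294 and 0.454 CPM in KO cells and 0.877 and 0.496 CPM in WT cells (difference -0.71; limma, adjusted p = 0.436). Il12b, a subunit of interleukin 12, was higher in both KO libraries, at 0.196 and 0.227 CPM in KO cells and 0.0313 and 0.0993 CPM in WT cells (difference 0.94, adjusted p = 0.287 by limma). Both Il6 and Il12b stayed under 1 CPM in every untreated library, where rounding limits the values.

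The rest of the TLR machinery held 1 call, Wdfy1, described above. Of the other 11 Toll-like receptors and relatives tested beside Tlr4 none was called by limma, and Tlr2, a receptor for bacterial lipoproteins, was higher at an unadjusted p under 0.05, with 122 and 118 CPM in KO cells and 101 and 105 CPM in WT cells (difference 0.22; limma, adjusted p = 0.49). Among 9 co-receptors and chaperones limma called 0, with 0 in either direction at an unadjusted p under 0.05: Cd14 had 157 and 143 CPM in KO cells and 161 and 166 CPM in WT cells, and Ly96 had 11.5 and 13.1 CPM in KO cells and 9.11 and 13.2 CPM in WT cells. Ticam1, the TRIF adaptor, had 40.9 and 44.1 CPM in KO cells and 46.9 and 47.6 CPM in WT cells (difference -0.15; limma, adjusted p = 0.593).

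Lipid metabolism lists, which bear on the title of the study, held no call in untreated cells. For cholesterol synthesis the median was -0.0268 over 24 genes and for fatty acid oxidation -0.0261 over 23, and neither had a gene at an unadjusted p under 0.05 by limma. Cpt1a, which carries fatty acids into mitochondria, had 177 and 195 CPM in KO cells and 180 and 172 CPM in WT cells. Of 14 LXR targets 1 was higher at an unadjusted p under 0.05: Abca1, the cholesterol exporter, 13.7 Mb from Tlr4 on chromosome 4, had 197 and 245 CPM in KO cells and 127 and 186 CPM in WT cells (difference 0.52, SE 0.22; limma, adjusted p = 0.554).

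Markers of other cells that a marrow culture could hold gave 0 calls by limma. At an unadjusted p under 0.05, 1 neutrophil marker was higher and 3 stromal markers were lower, where 4.64% of all genes were higher and 4.06% lower. Many of them, but not all, were low. In bulk RNA, fewer cells of a type and less RNA per cell cannot be told apart. Of 10 plasmacytoid dendritic cell markers, which mark a strong source of interferon, 5 were tested and none was called; their summed level was 57.9 and 62.0 CPM in KO cells and 56.4 and 60.3 CPM in WT cells, most of it Tcf4, and 3 were at 0 in all 4 libraries. Of 13 T and NK cell markers 8 were at 0, Cd3e and Cd8a among them, and of 9 B cell markers 3 were at 0, Pax5 among them, while Cd79b had 50.6 and 47.3 CPM in KO cells and 46.0 and 52.9 CPM in WT cells. The erythroid and platelet list summed to 464 and 384 CPM in KO cells and 381 and 524 CPM in WT cells, most of it the platelet chemokine Pf4, at 384 and 290 CPM in KO cells and 319 and 370 CPM in WT cells. Alas2 of that list was at 0. The neutrophil list summed to 525 and 526 CPM in KO cells and 499 and 572 CPM in WT cells, most of it Mmp8, Mmp9 and Csf3r. Other members were low: S100a8 had 8.41 and 7.26 CPM in KO cells and 5.11 and 10.1 CPM in WT cells. Ly6g had 0.0327 and 0 CPM in KO cells and 0 and 0.0662 CPM in WT cells. The macrophage markers had a median difference of 0.134 over 22 genes, with 3 higher and 1 lower at an unadjusted p under 0.05 and 0 called by limma. The lower one, Fcgr1 (difference -0.44), was also listed among the antiviral ISGs. KO lay above WT without overlap in 8 of the 22, or 36.4%, against 18.4% of all genes. It lay below in 13.6%, against 17.5%.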

How the data were processed

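RNA of BMDM was sequenced from mRNA libraries made with a strand-keeping TruSeq kit, per the labels' protocols. Per the submitters' processing notes, the tools included RSEM 1.2.12, STAR 2.4.0d, DESeq2 and Trim Galore 0.2.8, without roles; no source used here gives a genome build. The authors deposited a table of whole numbers per gene, treated here as a signal: each library's values lie on a grid, as reads multiplied by 1 factor (0.687 to 1.9005) and rounded would. Count models were therefore not used, and the reads given are those values divided by the factor. The authors also deposited rlog values on a log2 scale, used as a check.

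Values were scaled by library total and TMM factor (30% of M and 5% of A values trimmed) to CPM. Genes with at least 10 in at least 2 of 10 libraries were kept, 13171 of 20687 above 0. limma 3.58.1 in R 4.3.3, with a trend, fitted 5 group means to log2(CPM + 0.1) over all 10 libraries (5 residual and 4.82 prior degrees of freedom). Calls used a Benjamini-Hochberg adjusted p under 0.05 over all genes tested, with no fold threshold. The fit was also run on simulated data with the same spread for every gene, which does not measure its error rate in these libraries. Symbols (44671 of 45318 identifiers) and coordinates come from GENCODE M21 on GRCm38, which may not be the authors' build, and promoters from RefSeq on GRCm38.p6.

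Groups came from the sample titles. The genes, the 32 lists and the tests were chosen with earlier results of these data known. Named genes are Tlr4, every called gene, the 5 tested genes nearest to Tlr4 on either side, the interferon ligands, receptors and factors, and from each list up to 4 members by mean level and up to 4 by size of difference. The 2 untreated genotypes share replicate numbers, but same-numbered libraries did not deviate together (correlation 0.01634 across genes), and replicates of a genotype differed by more than sampling noise (chi-square over its degrees of freedom 13.39 in KO, 23.94 in WT). Other scalings, pseudocounts, filters, sample sets, the replicate block and leaving out each library were tried.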

Additional observations from a re-analysis of the deposited data

Results flagged for a closer look

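Of the 22 called genes, 16 had a genotype difference that itself differed between control medium and untreated cells (limma interaction, adjusted p under 0.05); each value below is the log2 difference KO minus WT in control medium minus that in untreated cells, and 45.7% of all genes tested had such a call. For 2 genes the genotype difference changed direction: Akap2, at -3.95 (adjusted p 2.32e-06 by limma), and Rab4a, at 1.53 (adjusted p 0.000268 by limma). The genotype difference was more negative after control medium for Ccl12, at -5.85, Upp1, at -5.64, Phf11b, at -3.88, Cmpk2, at -3.69, Pdpn, at -1.95, and Wdfy1, at -0.90. It was more positive for Acad10, at 1.55, and Lrmda, at 0.59, and less positive for Rnf217, at -0.62. For the identical Rpl35a copies the value was 3.05 for each of Rpl35a-ps2, Rpl35a-ps3, Rpl35a-ps4 and Rpl35a-ps6 and -1.93 for Gm10243.

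Of the 142 ISGs tested, 139 had a called interaction, all of them negative (limma, adjusted p under 0.05). Their median genotype difference was -2.80 after control medium and -0.36 in untreated cells.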

How the results depend on the processing

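The 22 calls between untreated KO and WT cells became 14 with no filter on low values, 8 (7 higher, 1 lower) with only the 4 untreated libraries in the fit, and 12 to 69 when 1 library was left out. The 69 (53 higher, 16 lower) came without WT replicate 2 and held 17 of the 22. Scaling by library totals gave 12 higher and 19 lower and scaling as deposited 10 higher and 15 lower, beside 11 and 11. Of 142 ISGs, 3 were called in the main fit, 9 by library totals, 6 as deposited, 0 with no filter, 0 with only the 4 untreated libraries and 0 to 4 with a library left out. Within 5 Mb of Tlr4 0 genes were called, and 2 to 4 within 20 Mb with a library left out. The ISG median stayed between -0.47 and -0.24 under every setting tried. The causes of these shifts were not tested.

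The untreated genotypes share replicate numbers that the labels do not call a pairing. With the replicate number as a block the fit called 99 genes (27 higher, 72 lower), 39 ISGs, 6 genes within 20 Mb of Tlr4 and Tlr4 itself, at -0.53 with an adjusted p of 0.0343 by limma; with the block and only the 4 untreated libraries it called 11. Leaving out 1 library moved the Tlr4 difference between -0.63 and -0.43.

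Over 239 named genes and 15 other settings, 3289 of 3529 values kept their direction and side of the threshold, 84 lost and 34 gained a call, 122 uncalled values changed sign and 0 called values reversed. The planned edgeR and DESeq2 fits were not run, since whole reads could not be recovered to the standard they need. With 2 libraries a group and signal in place of counts, differences in genes under about 1 CPM are limited by rounding.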
